A study of Mus musculus with 11 samples.

Results

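The Schlafen genes (Slfn) were followed in mouse T cell acute lymphoblastic leukaemia with and without the histone demethylase Utx. The genes described are the 7 listed rows of the deposited table with the symbols Slfn1, Slfn2, Slfn3, Slfn4, Slfn5, Slfn8 and Slfn9, of 37224 gene rows in all. The leukaemias were raised from cKit-positive progenitors of C57/BL6 background that received activated Notch1 (Notch1-IC) on a retrovirus and were put into recipient mice, so every sample of either genotype carries this virus. The knockout group held 5 samples from Utx-/Y donors, 2 from bone marrow and 3 from spleen. The wild-type group held 6 samples from Utx+/+ or Utx+/Y donors, 2 from bone marrow and 4 from spleen. Of these, 1 knockout and 2 wild-type samples were repeat runs, so each group held 4 samples without them. The series text speaks of sorted populations without naming the gate, and cells of the recipients may remain beside the leukaemic ones.

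Schlafen proteins share a core domain and come in short, intermediate and long forms, of which only the long forms carry a helicase-like region. The family was first described in mouse thymocytes and T cells, where its genes change with maturation and activation and where Slfn1 can slow growth. Slfn2 is known from mutant mice to be needed for T cells to stay quiescent. Several members are induced by interferon, and some Schlafen proteins cleave or protect transfer RNA.

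The table holds 1 count per gene for each genotype, summed by the authors over libraries, which add up to 106445530 (knockout pool) and 108015222 (wild-type pool). No spread between tumours can be computed from 2 pooled values. Nothing compared below is checked by replicates, and whether all tumours or a single one supplied the counts of a gene cannot be seen. Levels are given as CPM, the counts scaled to the column total, and intervals are exact 95% intervals that cover counting error only. The word "called" is used of genes with 100 or more counts over the pools, a ratio of CPM of 2-fold or more in either direction, and an interval for the log2 ratio that leaves out 0; higher and lower refer to the knockout pool. Kdm6a, the gene of Utx, had a log2 ratio of -2.48 (-2.57 to -2.38), on 10.5 CPM without and 58.3 CPM with the gene intact. The summed level of 4 Y-linked genes was 206 CPM in the knockout and 26.1 CPM in the wild-type pool. Knockout donors were male by genotype and wild-type donors of either sex, so genotype and sex cannot be told apart for any gene.

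All 7 members lie in 1 cluster on chromosome 11, which spans 335 kb from Slfn5 to the row Slfn14-ps (82951349 to 83286726, GRCm38 coordinates of GENCODE M21). In map order they are Slfn5 on the plus strand, Slfn9 and Slfn8 on the minus strand, and Slfn2, Slfn1, Slfn4 and Slfn3 on the plus strand. The longest annotated coding sequence was 337 codons for Slfn1 and 378 for Slfn2, the short forms. It was 640 codons for Slfn3 and 602 for Slfn4, the intermediate forms, and 884 for Slfn5 and 910 for each of Slfn8 and Slfn9, the long forms. Slfn3 and Slfn4 were identical at 92.7% of aligned coding bases, and so were Slfn8 and Slfn9 at 92.7%. Slfn1 and Slfn2 were identical at 71.9%, and Slfn5 and Slfn9 at 63.7%.

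This likeness bears on the counts, because reads were single reads of 50 bases. The following coding stretches of that length are each the same in more than 1 gene, so a read from them has more than 1 place of origin. They come from the GENCODE M21 transcripts (GRCm38) and are shown as examples of exons in which members cannot be separated. The first lies in exon 3 of 6 of Slfn9 (chr11:82987705-82987754, minus strand) and is identical in Slfn8 and Slfn10-ps. The second lies in exon 3 of 4 of Slfn3 (chr11:83212686-83212735, plus strand) and is identical in Slfn4. The third lies in exon 2 of 2 of Slfn2 (chr11:83070022-83070071, plus strand) and is also identical in Slfn4.
Slfn9, Slfn8 and Slfn10-ps: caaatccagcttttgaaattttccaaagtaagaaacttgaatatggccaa
Slfn3 and Slfn4: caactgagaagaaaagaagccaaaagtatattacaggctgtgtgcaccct
Slfn2 and Slfn4: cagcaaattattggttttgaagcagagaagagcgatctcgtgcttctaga

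Of all windows of 50 bases in its transcripts, Slfn8 had 14.6% identical in another gene, Slfn9 11.9%, Slfn3 16.0% and Slfn4 11.3%. For Slfn2 the share was 4.27% and for Slfn1 0.606%. With up to 2 mismatches to another gene of the family it rose to 47.1% for Slfn8, 37.1% for Slfn3, 35% for Slfn9, 29.3% for Slfn4, 15.8% for Slfn2 and 3.91% for Slfn1. Slfn5 had no window within 2 mismatches of a relative, and 11.1% of its windows were identical in genes outside the family, most of them in the antisense gene Slfn5os. The handling of reads with several places of origin is unknown here. The values of Slfn3, Slfn4, Slfn8, Slfn9 and Slfn10-ps are uncertain for that reason. The shares of windows do not bound the error in counts where a relative is far more abundant, as Slfn2 is beside Slfn4.

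**Figure D1:**
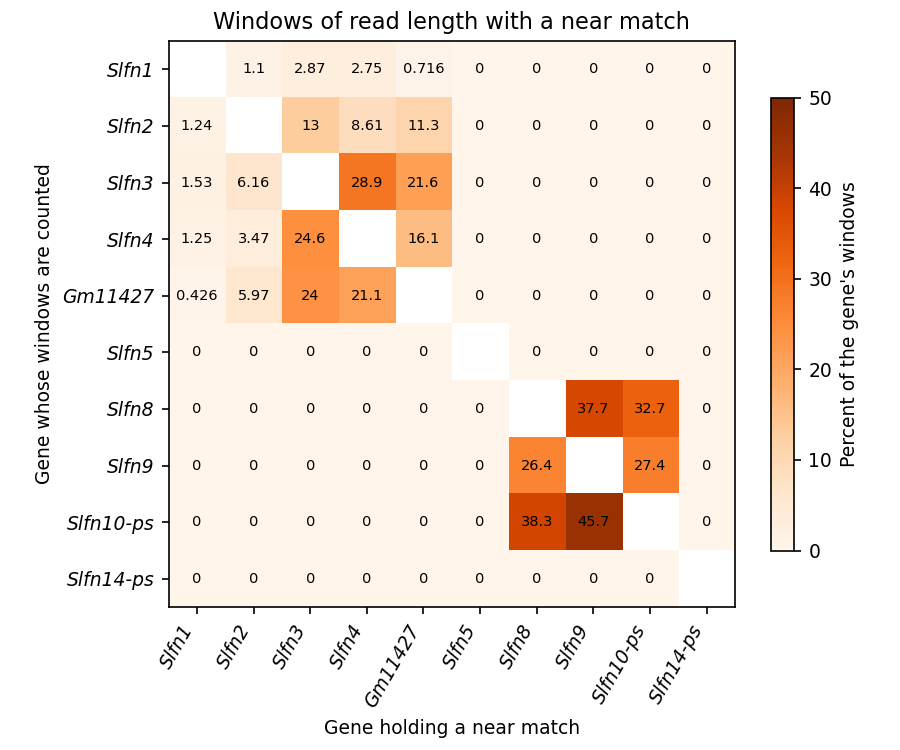
Percent of the 50-base windows of each gene (rows) that have a match with at most 2 mismatches in a transcript of another gene (columns), among the Slfn rows of chromosome 11 and the pseudogene Gm11427. Near matches fall in a block of Slfn1, Slfn2, Slfn3, Slfn4 and Gm11427 and a block of Slfn8, Slfn9 and Slfn10-ps, while Slfn5 and Slfn14-ps have none.

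Of the 7 members, 4 were called higher in the knockout pool, 0 lower and 3 neither. Over the 13833 genes with enough counts, 11.2% were called higher and 5.36% lower. The median log2 ratio of the members was 1.21, against -0.07 over those genes. These 7 values fell apart into Slfn1, Slfn2, Slfn4 and Slfn5, from 1.21 to 2.05, and Slfn3, Slfn8 and Slfn9, from -0.55 to -0.25. All members passed the minimum, with combined counts from 230 for Slfn4 to 13553 for Slfn2.

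Slfn2, the short form tied to T cell quiescence, was the most abundant member in each pool. It had 10493 counts in the knockout and 3060 in the wild-type pool, or 98.6 CPM (96.7 to 100.5) against 28.3 CPM (27.3 to 29.4). The intervals lie far apart, and the log2 ratio was 1.80 (1.74 to 1.86), a 3.48-fold difference. A ratio at least this high was found for 4.79% of the genes with enough counts.

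Slfn1, the other short form, had the highest ratio of the family at a much lower level. Its counts were 935 in the knockout and 229 in the wild-type pool, or 8.78 CPM (8.23 to 9.37) against 2.12 CPM (1.85 to 2.41). The log2 ratio was 2.05 (1.84 to 2.27), a 4.14-fold difference that 3.77% of genes reached or passed. The ratios of the short forms differed by 0.25 (0.04 to 0.47, counting error only), so they were close in size.

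The intermediate forms Slfn4 and Slfn3, which lie side by side and share most of their coding sequence, stood on different sides of 0. Slfn4, a gene best known from monocytes and macrophages in mice, was the least abundant member. It had 160 counts in the knockout and 70 in the wild-type pool, or 1.503 CPM (1.28 to 1.75) against 0.65 CPM (0.51 to 0.82). Its log2 ratio was 1.21 (0.80 to 1.64), an interval that reaches under the 2-fold line. Slfn3 had 688 counts in the knockout and 978 in the wild-type pool, or 6.46 CPM (5.99 to 6.96) against 9.05 CPM (8.50 to 9.64). Its log2 ratio of -0.49 (-0.63 to -0.34) did not reach the 2-fold minimum. For every 100 Slfn3 counts the knockout pool held 23.3 Slfn4 counts and the wild-type pool 7.16. The log2 ratio of Slfn4 was thus higher than that of Slfn3 by 1.70 (1.27 to 2.13). The sum of their counts, which does not depend on how shared reads were split between them, had a log2 ratio of -0.28 (-0.42 to -0.15).

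The long forms also divided. Slfn5, which in human cells is induced by interferon, had 2597 counts in the knockout and 988 in the wild-type pool. These are 24.4 CPM (23.5 to 25.4) against 9.15 CPM (8.59 to 9.74). The log2 ratio was 1.41 (1.31 to 1.52), a 2.67-fold difference that 7.16% of genes reached or passed. The antisense gene Slfn5os, listed as 1700003F17Rik, had 18 and 12 counts, far below the Slfn5 counts.

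Slfn9 had 2039 counts in the knockout and 2467 in the wild-type pool, or 19.2 CPM (18.3 to 20.01) against 22.8 CPM (21.9 to 23.8). Slfn8, its nearest relative among the members, had 603 against 898 counts, or 5.66 CPM (5.22 to 6.14) against 8.31 CPM (7.78 to 8.88). Their log2 ratios were -0.25 (-0.34 to -0.17) and -0.55 (-0.70 to -0.40), and neither was called. For every 100 Slfn9 counts, the knockout pool held 127 Slfn5 counts and the wild-type pool 40.0. The log2 ratio of Slfn5 was higher than that of Slfn9 by 1.67 (1.53 to 1.80), and that of Slfn2 by 2.05 (1.95 to 2.16). These differences between members do not depend on the depth chosen for the pools.

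In the authors' deposited table, the Benjamini-Hochberg q of the members ranged from 9.98e-09 for Slfn9 to 2.13e-168 for Slfn5, and was listed as 0 for Slfn2. That DEGseq test compares these pools of reads and not the genotypes.

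**Figure D2:**
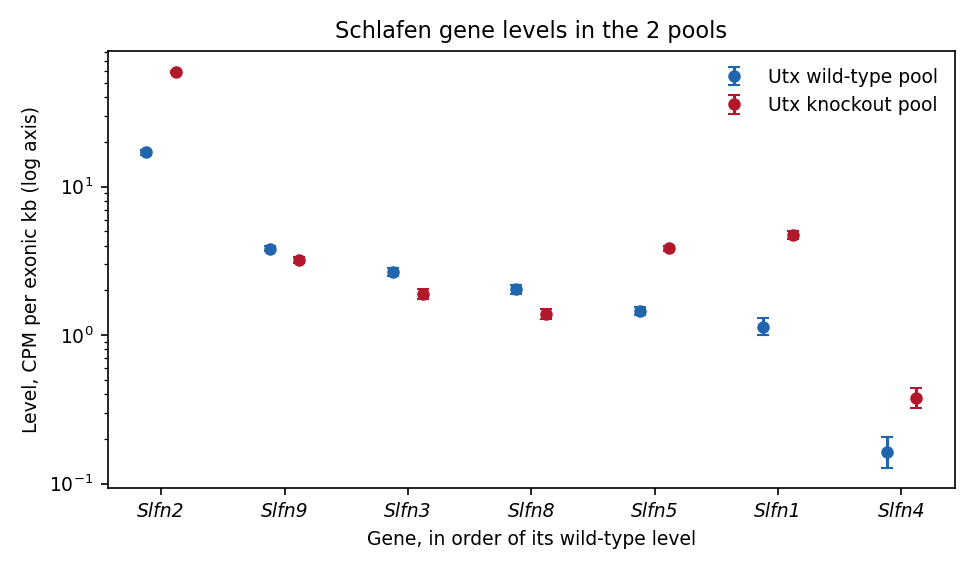
Level of each Schlafen member as CPM per exonic kilobase (log axis) in the wild-type pool (blue) and the knockout pool (red), with exact 95% Poisson intervals for counting error only. Slfn2 stands above all other members in each pool, and Slfn1 and Slfn5 move from the lower part of the wild-type order to places above Slfn9, Slfn3 and Slfn8 in the knockout pool.

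Levels were compared between genes as CPM per kilobase of annotated exon. In the wild-type pool the order was Slfn2 at 17.0, Slfn9 at 3.83, Slfn3 at 2.65, Slfn8 at 2.03, Slfn5 at 1.45, Slfn1 at 1.14 and Slfn4 at 0.16 CPM per kilobase. In the knockout pool it was Slfn2 at 59.2, Slfn1 at 4.71, Slfn5 at 3.86, Slfn9 at 3.21, Slfn3 at 1.89, Slfn8 at 1.38 and Slfn4 at 0.38 CPM per kilobase. Neighbours in either order differed by more than counting error, while the spread between tumours behind each level is unknown. Slfn2 made up 60.2% of the summed level of the family per kilobase in the wild-type and 79.3% in the knockout pool. In counts not divided by length, its shares were 35.2% and 59.9%, and Slfn9 held 28.4% and 11.6%. The joint share of the family level held by Slfn9, Slfn3 and Slfn8 was smaller in the knockout pool, where they held 4.30%, 2.54% and 1.85%, than in the wild-type pool, where they held 13.5%, 9.38% and 7.18%.

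**Figure D3:**
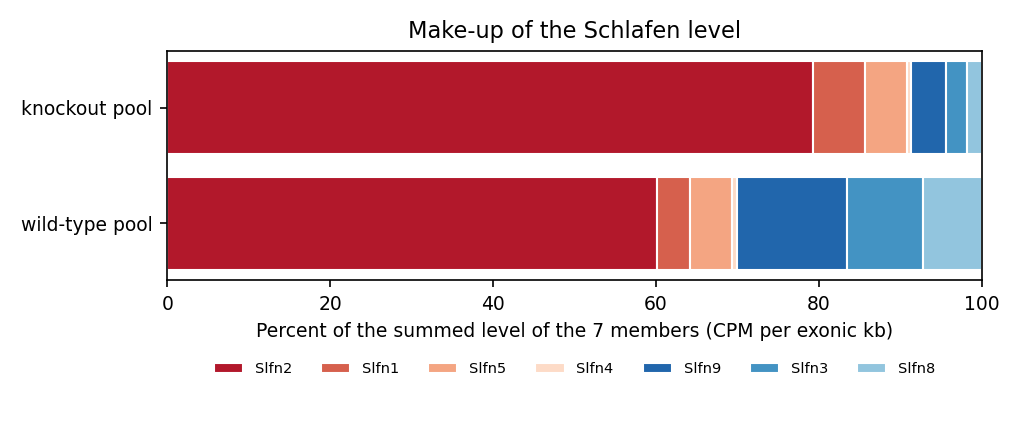
Share of the summed level of the 7 members (percent of CPM per exonic kilobase) held by each gene in the wild-type and the knockout pool. Slfn2 takes 60.2% of the wild-type and 79.3% of the knockout bar, and Slfn9, Slfn3 and Slfn8 (blue) take a smaller part of the knockout bar.

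Summed over the 7 members the log2 ratio was 1.03 (1.00 to 1.07), on 165 CPM in the knockout and 80.5 CPM in the wild-type pool. This sum rests on Slfn2. Without it the log2 ratio was 0.34 (0.29 to 0.39), on 66.0 against 52.1 CPM. The 4 members called higher had a joint log2 ratio of 1.73 and the other 3 members one of -0.36, values that describe the division and are no test of it.

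The table held other rows of the family. Slfn10-ps, a pseudogene between Slfn8 and Slfn2, had 727 counts in the knockout and 1675 in the wild-type pool. Its log2 ratio of -1.18 (-1.31 to -1.06) was the lowest among the Slfn rows and was called lower. Slfn9, Slfn8 and Slfn10-ps, adjacent on the minus strand and near-identical over long stretches, together had 31.6 against 46.7 CPM and a log2 ratio of -0.56 (-0.62 to -0.50). The row Slfn14-ps, named Slfn14 in later annotation, had 2400 against 940 counts and a log2 ratio of 1.37 (1.26 to 1.48), and was called higher. Slfn14 is known in humans for its role in platelets and red cells. Beside it, 2 of 8 erythroid genes were called higher with a median of 0.77, as were 3 of 5 megakaryocyte genes with a median of 1.02. The share called higher over all genes with enough counts was 11.2%. The part of erythroid and megakaryocyte cells in the Slfn14-ps ratio was not tested. Slfnl1, a distant relative on chromosome 4, had 1 count in each pool.

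The genes on either side of the cluster were read beside it. The 10 nearest protein-coding genes with at least 20 counts, 5 on each side, had a median log2 ratio of -0.22. Of these, 8 had the 100 counts a call needs, and 0 were called higher or lower. Over all genes with that many counts, 11.2% were called higher and 5.36% lower, so 8 genes are too few to set the flanks apart. Unc45b, a muscle chaperone gene next to Slfn5, had the highest value at 1.00 (0.19 to 1.90) on 38 against 19 counts, too few for a call. Ap2b1, an adaptor subunit of clathrin coats and the deepest of them, was at 0.17 (0.12 to 0.21), and Taf15, an RNA-binding protein gene, at -0.54 (-0.61 to -0.48). Within the cluster, the noncoding AI662270 was far more abundant than any Slfn row, with 463 against 573 CPM and a log2 ratio of -0.31. The pseudogene Gm11427 beside Slfn3, which has near matches to Slfn3 and Slfn4, stood at -0.14. The processed pseudogene Gm11424, between Slfn5 and Slfn9, had 66 against 9 counts.

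**Figure D4:**
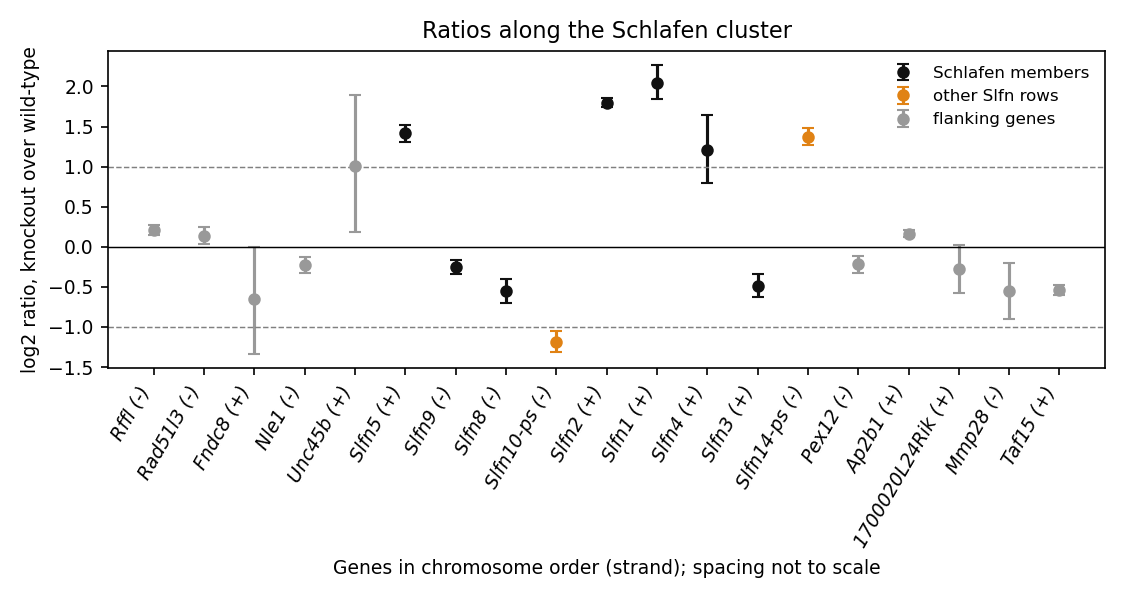
Log2 ratio of the knockout over the wild-type pool for the Slfn rows of chromosome 11 and the 5 nearest protein-coding genes on each side, in chromosome order with the strand in brackets, with exact 95% intervals for counting error only. Dashed lines mark a 2-fold difference: Slfn5, Slfn2, Slfn1, Slfn4 and Slfn14-ps lie above it, Slfn10-ps lies below it, and the flanking genes lie between the lines or, for Unc45b with 57 counts, at the upper one.

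The promoters were examined because short, intermediate and long forms were all among the higher members. Windows of 250 bases before the start site were taken from RefSeq (GRCm38.p6), which gave at least 1 window for 7 of 7 members. They were searched on either strand for GAAANNGAA, the core of the element bound by interferon regulatory factors, for TTCNNNGAA, the element bound by STAT factors, and for GTGGGAA, the element bound by the Notch partner Rbpj. The first was found in Slfn5, Slfn8 and Slfn9, that is in 3 of 7 members, against 8.18% of all 27025 genes with a window. In Slfn5 it stood at 2 places as GAAAAAGAA and, on the other strand, TTCTCTTTC. That window (chr11:82951852-82952101) lies inside the gene of GENCODE M21, which starts at 82951349, and 117 of its bases are exonic there. In Slfn8 and Slfn9 it was the same TTCGTTTTC at nearly the same distance, 47 to 39 and 44 to 36 bases before the outermost start. The other elements were found in none of the members' windows, against 8.13% and 6.18% of all genes with a window. Outside the members, GAAANNGAA also stood as GAAAGTGAA in the window of Slfn14, whose row Slfn14-ps was called higher. This motif was thus present in a member that was higher and in a pair that was not. These letters were not in the windows of Slfn1 and Slfn2. Only the exact patterns were searched, so other forms of the elements were not looked for. The windows of Slfn1, Slfn2, Slfn8 and Slfn9 are printed to show that difference in letters, with the matched ones in capitals. They lie at chr11:83116570-83116819 for Slfn1 and chr11:83064862-83065111 for Slfn2, on the plus strand, and at chr11:83020811-83021060 for Slfn8 and chr11:82991831-82992080 for Slfn9, on the minus strand.
Slfn1: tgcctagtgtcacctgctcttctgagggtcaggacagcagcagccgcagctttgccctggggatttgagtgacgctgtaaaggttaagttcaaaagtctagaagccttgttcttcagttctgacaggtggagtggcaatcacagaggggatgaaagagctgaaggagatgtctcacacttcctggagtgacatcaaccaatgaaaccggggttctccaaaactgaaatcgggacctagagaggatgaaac
Slfn2: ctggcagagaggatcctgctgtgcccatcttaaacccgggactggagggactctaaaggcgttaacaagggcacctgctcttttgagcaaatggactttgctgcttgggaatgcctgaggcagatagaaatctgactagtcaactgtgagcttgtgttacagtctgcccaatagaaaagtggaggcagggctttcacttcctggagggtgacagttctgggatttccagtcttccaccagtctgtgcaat
Slfn8: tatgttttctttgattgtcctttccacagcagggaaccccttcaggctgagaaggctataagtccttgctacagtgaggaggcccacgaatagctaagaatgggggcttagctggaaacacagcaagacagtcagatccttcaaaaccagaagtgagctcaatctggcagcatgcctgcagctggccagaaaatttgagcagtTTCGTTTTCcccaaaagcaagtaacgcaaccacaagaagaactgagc
Slfn9: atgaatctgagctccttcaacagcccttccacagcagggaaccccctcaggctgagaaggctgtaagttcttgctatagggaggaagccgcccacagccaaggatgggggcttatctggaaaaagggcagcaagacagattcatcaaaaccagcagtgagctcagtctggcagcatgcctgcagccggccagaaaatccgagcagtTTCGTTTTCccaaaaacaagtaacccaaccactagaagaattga

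Since several Schlafen genes are interferon-induced, the genes of that pathway were read beside them. Of 19 genes of interferon signalling, which covers receptors, JAK and STAT proteins and regulatory factors, 0 were called in either direction, and the median log2 ratio was 0.13. The highest were Irf2 at 0.77 and the kinase gene Jak1 at 0.53, and the lowest were the inhibitor gene Usp18 at -0.89 and Irf5 at -0.41. The receptor genes Ifnar1 and Ifnar2 were at 0.05 and -0.10. Of 34 measured interferon-induced genes, 31 had the 100 counts a call needs, and 2 were called higher and 2 lower. The median over the 34 was 0.14. Ifi44, below that minimum with 9 against 43 counts, was at -2.17 (-3.46 to -1.18). Ifi27l2a (2.06) and the guanylate-binding protein gene Gbp3 (1.33) were higher, and the antiviral GTPase genes Mx1 (-4.92, on 8 against 261 counts) and Mx2 (-4.44) were lower. Isg15 was at 0.15 and Rsad2 at 0.06. Over all 17186 genes with at least 20 counts the median was -0.07. Of those with the 100 counts a call needs, 11.2% were called higher and 5.36% lower.

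Genes tied to T cell quiescence and recirculation were read beside Slfn2. Of 20 such genes, 13 were called neither way, 7 higher and 0 lower, with a median of 0.63. The shares over all genes with enough counts were 11.2% higher and 5.36% lower. Among the higher ones were Ccr7 (2.64), Il7r (2.49), S1pr1 (2.03), Klf4 (1.71) and Tob2 (1.12). Klf4 encodes a factor that holds back T cell division and Tob2 an antiproliferative protein. Klf2 was at 0.79, Foxo1 at -0.38 and Tsc1, another gene needed for quiescence, at -0.58. Several of these genes were known to differ in these data when the list was written, so the count is no independent evidence.

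Markers of other blood cells differed by cell type. The counts called stand beside shares of 11.2% higher and 5.36% lower over all genes with enough counts. Of 14 monocyte and macrophage markers, 13 were called higher and none lower, with a median of 1.59 and a summed level of 453 against 144 CPM. The chemokine receptor gene Ccr2, at 4.98, and the scavenger receptor gene Marco, at 2.43, had the highest values, and the growth factor receptor gene Csf1r was at 1.46. None of these markers was at 0 in either pool. Of 10 granulocyte markers 4 were called higher, and 6 neither, with a median of 0.55 and a sum of 2468 against 2013 CPM. Of 6 measured NK markers 4 were called higher, among them Prf1 (2.27) and Klrd1 (2.26), while the most abundant, Gzma, was at -0.29. Their summed levels were 231 and 246 CPM. Slfn4 and other members of the family are also expressed in myeloid cells, and the part of these markers in the ratios of the members was not tested. In bulk RNA a larger number of cells of a type and more RNA per cell cannot be told apart.

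The labelled cell type was checked against its defining markers. All 14 T cell markers were measured, none at 0, with a sum of 3480.4 CPM in the knockout and 4426 CPM in the wild-type pool and a median of -0.31. Of these, 1 was lower, Thy1 at -1.06, and 0 were higher, beside 5.36% lower and 11.2% higher over all genes with enough counts. Cd3e was at -0.03, Lck at -0.39 and Cd8b1, the highest, at 0.75. Scaled to the summed T cell markers in place of all counts, the log2 ratio of Slfn2 was 2.15, of Slfn1 2.40, of Slfn5 1.76 and of Slfn4 1.56. On that scale Slfn3 and Slfn8 were at -0.14 and -0.21, and Slfn9 turned to 0.09. Of 7 B cell markers, 5 of them with 100 counts, none was higher and 1, Pax5, was lower at -2.04, and the median was 0.01. Of 7 dendritic cell markers, 6 of them with 100 counts, Siglech was higher at 1.09 and none was lower, and the median was -0.77. Stromal markers had a median of 0.67, with 3 of 7 higher and Pdgfrb lower at -1.48.

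**Figure D5:**
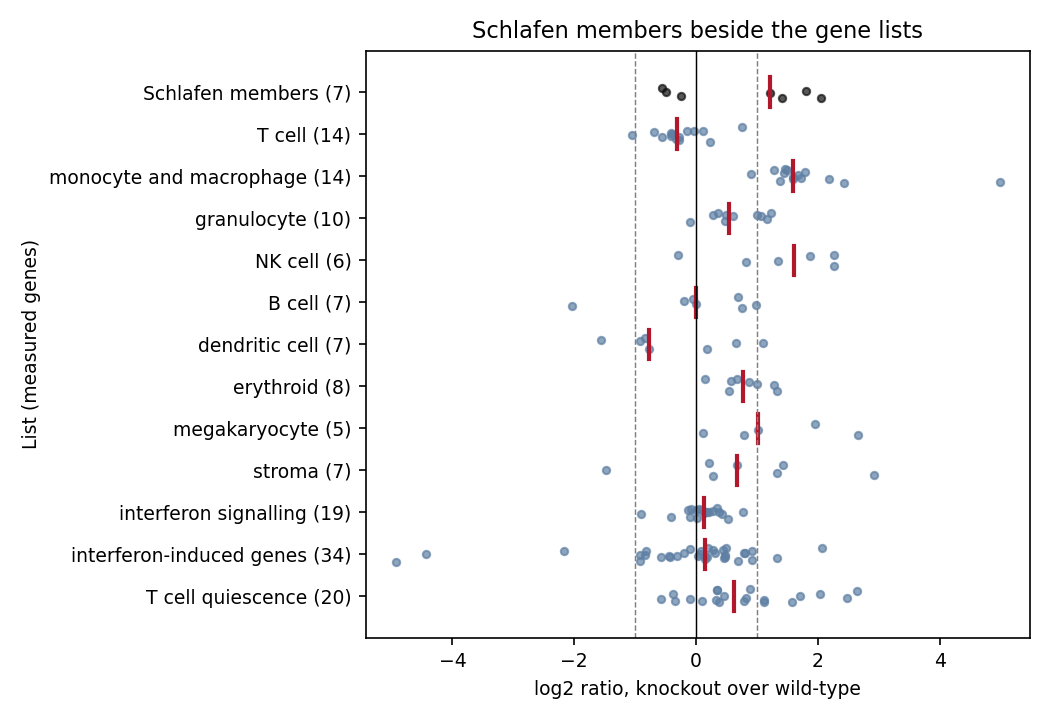
Log2 ratio of the knockout over the wild-type pool for the 7 Schlafen members and for the measured genes of each list (number in brackets), with red bars at the medians and dashed lines at a 2-fold difference. The Schlafen members form a group from 1.21 to 2.05 and one from -0.55 to -0.25, the interferon lists have medians of 0.13 and 0.14, and the monocyte and macrophage markers have a median of 1.59.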

How the data were processed

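Per the labels' protocols, libraries were strand-marked (dUTP) from poly(A) RNA and sequenced from 1 end over 50 bases; the series text also names ribosomal depletion. CASAVA, TopHat and the build mm9 are named in the submitters' processing notes. The sources used here do not give the annotation, the counting tool, its strand setting or the handling of reads with several places. The authors deposited whole-number counts per gene, pooled by genotype, with log2 fold changes, which equal the log2 ratio of the counts scaled to column totals, and q-values of their DEGseq test, per the file headers. Which value column is the knockout was read from the order in the table's title. Rows with no value in either pool, 13843 in number, were taken as 0.

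CPM used the column total as depth, 106445530 and 108015222 counts. Ratios used a pseudocount of 0.5 in each pool, with exact 95% Clopper-Pearson intervals built on the share of counts from the knockout, and levels had exact Poisson intervals. Differences between members' ratios had Woolf intervals. All cover counting error only. Reads without molecular identifiers are not independent molecules, so the intervals can be too narrow. Calls needed 100 combined counts, a 2-fold ratio and an interval without 0. They were run on simulated pools that held counting error only. Such pools hold no spread between tumours and no shared reads, so they cannot show how the calls fare with either. The call rule is no test of genotype. A list member was measured with 20 counts. Exonic lengths, windows and coordinates came from GENCODE M21 (GRCm38), matched by Ensembl identifier and not by mm9 coordinates, and promoters from RefSeq (GRCm38.p6). Coding sequences were aligned globally with Biopython 1.88. TMM and upper quartile factors came from edgeR 4.0.16 and median of ratios factors from DESeq2 1.42.0.

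Named genes were all Slfn rows, Kdm6a, the flanking genes, called list members, and up to 2 highest and 2 lowest list members with 100 counts. Some genes the rule names are not reported here. Others, such as Klf2, Isg15, Ifi44 and Cd3e, were chosen after their values were seen. With 2 pooled values no genes could be named by likeness of pattern. The members and lists were chosen with earlier results of these data known.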

Additional observations from a re-analysis of the deposited data

How the results depend on the processing

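No paired analysis was possible because the values are pooled by genotype and carry no replicate number; for the same reason no sample could be left out and no count model across samples was fitted. The count of members called higher was 4 under every scaling tried, under a minimum of 20 counts and under a 1.5-fold minimum. It was 2 with a 3-fold minimum (Slfn1 and Slfn2) and 3 with a minimum of 1000 counts, which Slfn4 misses. No member was called lower under any of these. With the authors' q under 0.05 in place of the interval, the count and 2-fold minima were kept. All members had a q of 9.98e-09 or less, so that setting could not change the calls. The share of all genes called under these other settings is not given here, so the counts have no background beside them. The log2 ratio of the family sum was 1.03. It was 1.11 with TMM, 1.10 with the median of ratios, 1.12 when mitochondrial and erythroid genes were left out of the depth, and 1.03 with upper quartile scaling and with a pseudocount of 5. Added after seeing the data, it was 1.38 with the summed T cell markers as depth, 0.34 without Slfn2 and 0.89 with Slfn10-ps and Slfn14-ps. The scalings shift every gene alike, by 0.08 with TMM and 0.35 with T cell markers as depth, and the latter turned Slfn9 from -0.25 to 0.09. Among the lists, the B cell median turned from 0.01 to -0.047 with a minimum of 100 counts, and the dendritic cell median moved from -0.77 to -0.29. Without division by length, the share of the family in the knockout pool was 14.8% for Slfn5, 11.6% for Slfn9 and 5.34% for Slfn1, so that Slfn5 and Slfn9 stood above Slfn1. Low counts limit Slfn4, and shared sequence limits Slfn3, Slfn4, Slfn8, Slfn9 and Slfn10-ps.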
